A study of Mus musculus with 13 samples.

Results

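Fatty acid and triglyceride synthesis was examined through 40 listed genes, of which 36 were measured among the 15437 genes tested. The genes were chosen by name for their place in the pathway, with earlier results of these data known. The carboxylases Acaca and Acacb, the synthetase Acsl1 and the acyltransferase Agpat2 were not analysed here. The listed genes were sorted into 6 steps: precursor supply and synthesis (5 measured genes), regulators (3), elongation (6), desaturation (5), activation (3) and esterification (14). Expression was measured in sciatic nerve of mice of the BKS strain at 24 weeks of age, with 7 arrays from db/+ mice (samples 101, 103, 104, 105, 106, 404 and 407) and 6 from db/db mice (samples 110, 111, 112, 409, 410 and 411). The db allele is a loss-of-function mutation of Lepr, the leptin receptor gene, that causes obesity and diabetes in homozygotes (db/db). The control group here is heterozygous, so both groups carry the mutant allele. No treatment is given in the labels for either group. Nothing in the labels says that the samples are from separate animals, so the p-values measure the spread between these samples.

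Cells build fatty acids from cytosolic acetyl-CoA, which is made from exported citrate or from acetate, and fatty acid synthase joins these units with reducing power from NADPH. Elongases lengthen the products, desaturases add double bonds, and acyl-CoA synthetases activate fatty acids for use. Acyltransferases and phosphatidate phosphatases then assemble them on glycerol as phospholipids and triglycerides. In a peripheral nerve, Schwann cells use these lipids for myelin, and the adipocytes of the surrounding epineurium store triglyceride.

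Values were log2 expression levels. Array medians lay between 8.63 and 8.71, correlations between arrays across genes ranged from 0.894 to 0.989, and 0 pairs of arrays held identical values. The myelin markers Mbp and Pmp22 lay between 12.90 and 13.98 on all arrays, and the adipocyte markers Adipoq and Fabp4 between 13.26 and 14.05, in a table whose values ran from 1.75 to 16.37. Lepr was lower in db/db nerve, at 6.30 ± 0.28 (SD, n = 6) against 7.72 ± 0.79 (SD, n = 7), and the groups did not overlap. Which part of the Lepr transcript is read is not given in the sources used here. Among themselves, the db/+ arrays stood apart. The mean of 13 neuron markers was 11.11 to 11.82 in db/+ 101, 103, 104 and 106, 7.44 to 8.48 in db/+ 105, 404 and 407, and ran from 6.64 to 7.27 over the db/db arrays. The mean of 4 satellite glia markers was 12.19 to 12.41, 10.16 to 10.45 and 10.18 to 10.97 in the same order. Each genotype comparison was therefore made over all 13 arrays and again over 9 arrays, with db/+ 105, 404 and 407 as the control group. The comparisons share the db/db arrays and those 3 db/+ arrays. In whole nerve, fewer cells of a type and less RNA per cell cannot be told apart.

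Over all 13 arrays, 4 of the 36 genes rose in db/db nerve (Mogat2, Fads3, Dgat2 and Lpin1) and 5 fell (Elovl4, Mogat1, Elovl7, Elovl2 and Elovl6), at a Benjamini-Hochberg adjusted p under 0.05 from limma over all genes. These were 11.1% and 13.9% of the measured members, beside 13.4% of all genes called higher and 11.7% called lower. The median log2 difference of the members, db/db minus db/+, was 0.10, beside 0.02 over all genes. Over the 9 arrays, the same 4 genes rose and 2 fell (Mogat1 and Thrsp), which were 11.1% and 5.56% of the members, beside 6.12% of all genes called higher and 6.78% called lower. The median was -0.03 there, beside -0.05 over all genes. The shares called lay near those of all genes, apart from the rises over the 9 arrays. The 5 genes called in both comparisons were Mogat2, Dgat2, Fads3 and Lpin1, which were higher, and Mogat1, which was lower.

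**Figure D1:**
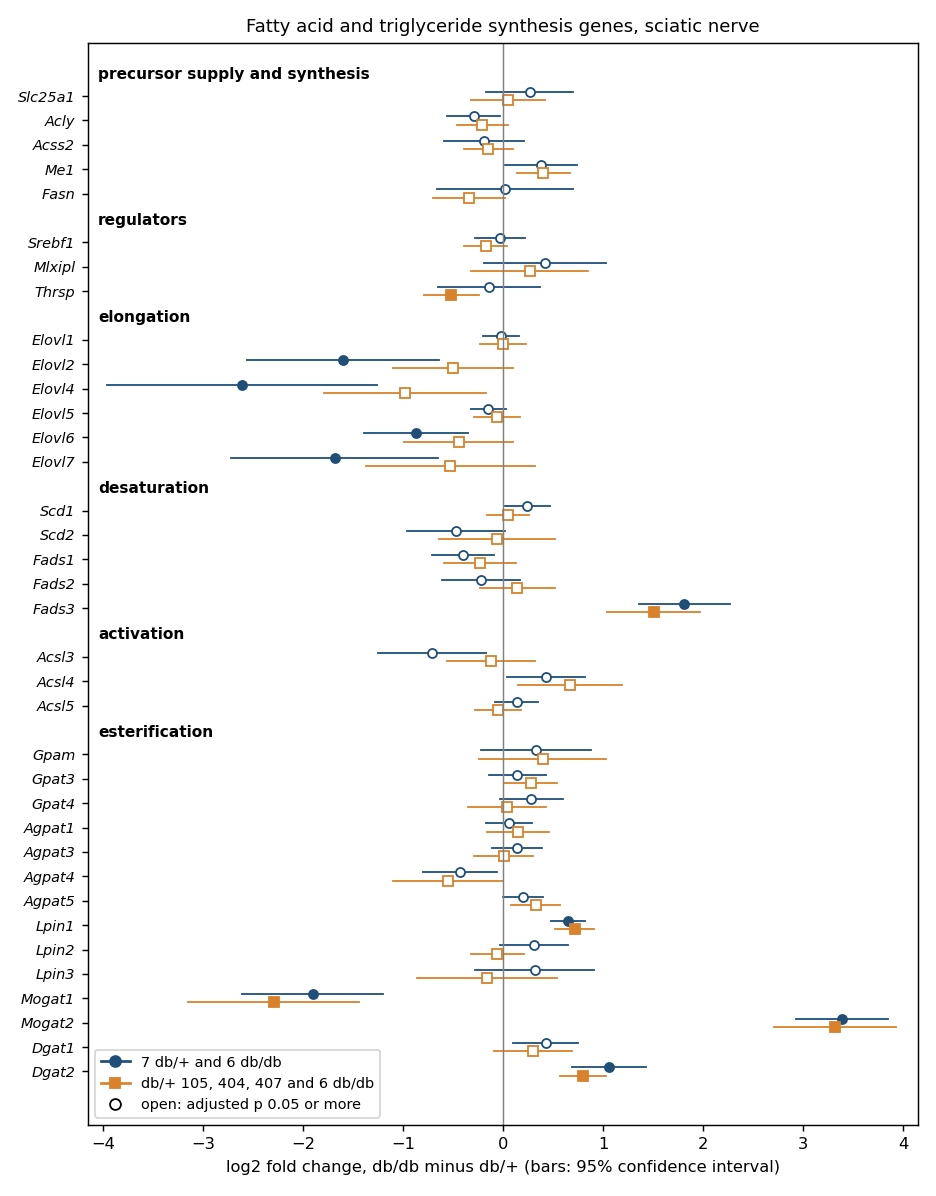
Log2 difference between db/db and db/+ nerve for the 36 measured genes, by pathway step, with 95% confidence intervals from limma; circles use all 13 arrays, squares the 9 arrays with db/+ 105, 404 and 407, and filled symbols have an adjusted p under 0.05. Mogat2 (3.39 and 3.32), Fads3 (1.81 and 1.50), Dgat2, Lpin1 and Mogat1 keep filled symbols in both comparisons, whereas Elovl2, Elovl4, Elovl6 and Elovl7 are filled over all arrays only.

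The promoters of 3 of these 5 genes are shown because the genes moved in both comparisons and in opposite directions; the promoters of Mogat2 and Dgat2 were not analysed here. Sequences are from RefSeq (GRCm38.p6), cover the 250 bases before the annotated start and read 5′ to 3′ on the gene's strand. Capitals mark matches, on either strand, to CCAAT (the CCAAT box) and GGGCGG (the GC box). The 2 other motifs searched, CACGTG (the E-box) and TCACNCCAC (a sterol regulatory element), had no match in these 3 windows. The windows are chr19:10041298-10041547 (+ strand) for Fads3, chr12:16610967-16611216 (- strand) for Lpin1 and chr1:78510810-78511059 (+ strand) for Mogat1.
Fads3: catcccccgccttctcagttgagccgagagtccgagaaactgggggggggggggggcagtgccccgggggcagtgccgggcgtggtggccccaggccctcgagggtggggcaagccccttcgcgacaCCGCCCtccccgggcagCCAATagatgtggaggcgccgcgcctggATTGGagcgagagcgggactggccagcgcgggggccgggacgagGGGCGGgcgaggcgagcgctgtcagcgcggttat
Lpin1: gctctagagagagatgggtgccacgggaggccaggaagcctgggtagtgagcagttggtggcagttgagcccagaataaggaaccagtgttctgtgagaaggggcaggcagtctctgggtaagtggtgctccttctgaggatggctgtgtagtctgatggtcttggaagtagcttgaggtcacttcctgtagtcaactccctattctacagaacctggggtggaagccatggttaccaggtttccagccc
Mogat1: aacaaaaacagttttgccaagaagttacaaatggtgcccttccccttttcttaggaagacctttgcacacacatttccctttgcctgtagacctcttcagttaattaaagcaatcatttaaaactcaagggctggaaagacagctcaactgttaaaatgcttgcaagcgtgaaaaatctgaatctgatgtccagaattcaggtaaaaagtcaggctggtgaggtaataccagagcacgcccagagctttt
The Fads3 window held 74.4% G and C and 4 matches, 2 to the CCAAT box and 2 to the GC box. The Lpin1 window held 54.8% G and C and the Mogat1 window 41.2%, with 0 matches each. Promoters were found for 28 of the 36 members, and several had more than 1 annotated start, giving 39 windows. The GC box was in 59.0% of these, beside 32.7% of all 32851 promoters of the table, and the CCAAT box in 43.6%, beside 33.8%. The E-box was in 10.3%, beside 6.02%, and the sterol regulatory element in 2.56%, beside 1.05%. A match is a run of letters, not a tested site.

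Esterification held 4 of the called genes, 3 higher and 1 lower of 14, in each comparison. Its median log2 difference was 0.29 over all arrays and 0.21 over the 9. The mean level of the 14 genes was 8.81 to 9.30 in db/+ and 9.34 to 9.66 in db/db. That mean includes Mogat2, which had the largest difference of the 14, and 10 of the 14 were not called in each comparison. It therefore does not show a rise of the step as a whole. The monoacylglycerol acyltransferases Mogat1 and Mogat2, which make diacylglycerol from monoacylglycerol, moved in opposite directions. Mogat2 read 4.38, 5.16, 5.32, 5.45, 4.99, 4.77 and 5.05 on db/+ arrays 101, 103, 104, 105, 106, 404 and 407, and 7.90, 8.92, 8.78, 8.45, 8.55 and 7.82 on db/db arrays 110, 111, 112, 409, 410 and 411. All db/db arrays lay above all db/+ arrays, with no overlap. The log2 difference was 3.39 ± 0.21 (SE; adjusted p = 5.64e-07), a 10.5-fold rise, and 3.32 ± 0.27 (adjusted p = 0.000222) over the 9 arrays. It was 3.47 within the arrays numbered 101 to 112 and 3.37 within those numbered 404 to 411. The db/+ levels of Mogat2 lay well below the array medians of 8.63 to 8.71. There are no detection calls, so the size of the fold rests on a low control level.

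Mogat1 read 10.16, 10.06, 11.14, 11.57, 11.13, 11.31 and 11.04 on the db/+ arrays in the same order, and 9.14, 7.69, 9.63, 8.93, 9.57 and 9.09 on the db/db arrays. The groups did not overlap, and db/db 111 was the lowest of all. It fell by 1.90 ± 0.33 on the log2 scale (SE; adjusted p = 0.00141), a 3.74-fold fall. Over the 9 arrays it fell by 2.29 ± 0.38 (adjusted p = 0.00538). Within the number series it fell by 1.99 and by 1.98. Levels of the 2 genes come from different probe sets and cannot be set against each other.

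Dgat2, an acyltransferase of the last step that turns diacylglycerol into triglyceride, read 11.55, 12.34, 12.36, 12.74, 12.66, 12.85 and 12.47 in db/+ and 13.40, 13.49, 13.48, 13.45, 13.56 and 13.50 in db/db. The db/db arrays lay close together and all above the db/+ arrays, whose spread was wider (SD 0.43 against 0.05). The log2 difference was 1.06 ± 0.17 (SE; adjusted p = 0.00094), a 2.08-fold rise, and 0.79 ± 0.10 (adjusted p = 0.00187) over the 9 arrays. Dgat1, the unrelated enzyme of the same reaction, differed by 0.42 ± 0.15 (SE) and missed the threshold over all arrays (adjusted p = 0.0561). When the number series was a block it passed in both comparisons, at 0.34 (adjusted p = 0.044) and 0.36 (adjusted p = 0.0358), and without db/+ 404 it passed over all arrays at 0.49 (adjusted p = 0.0309).

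Lpin1, a phosphatidate phosphatase that supplies diacylglycerol and also acts as a transcriptional coregulator, read 10.28, 10.40, 10.03, 10.12, 10.18, 10.11 and 10.08 in db/+ and 10.77, 10.83, 10.93, 10.71, 10.79 and 10.87 in db/db. The groups did not overlap and both were tight, with an SD of 0.13 and 0.08. Lpin1 rose by 0.65 ± 0.08 on the log2 scale (SE; adjusted p = 0.000111), or 1.57-fold, and by 0.71 ± 0.09 (adjusted p = 0.00147) over the 9 arrays. The 2 other lipins were not called. Lpin2 differed by 0.31 and -0.06 in the 2 comparisons and Lpin3 by 0.32 and -0.16. Lpin3 differed by 0.52 within arrays 101 to 112, where it passed (adjusted p = 0.0432), and by -0.45 within arrays 404 to 411, with an unadjusted p of 0.00283 for the difference between the series in the interaction term of limma, and passed adjustment in neither the interaction nor the main comparison.

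The acyltransferases of the first steps were not called in either comparison. The glycerol-3-phosphate acyltransferases Gpam, Gpat3 and Gpat4, which start glycerolipid assembly, differed by 0.33, 0.14 and 0.28 on the log2 scale over all arrays. Of the lysophosphatidate acyltransferases, which add the next chain, Agpat1, Agpat3 and Agpat5 differed by 0.06, 0.14 and 0.20. Agpat5 arrays of db/db, from 10.13 to 10.53, lay above those of db/+ 105, 404 and 407, from 9.97 to 10.02, but overlapped the other db/+ arrays, and its adjusted p was 0.0811 over the 9 arrays. With each array centred on its median, Agpat5 passed over the 9 arrays at 0.38 (adjusted p = 0.0475). Agpat4 was the member of this family with a negative difference, at -0.43 ± 0.17 (SE; adjusted p = 0.0839). It passed once the number series was a block, at -0.54 (adjusted p = 0.00369), within arrays 101 to 112, at -0.58 (adjusted p = 0.0131), and without db/db 409, at -0.54 (adjusted p = 0.0309).

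Adipocyte markers were read beside the esterification genes. Of 13 measured adipocyte markers, 7 rose over all arrays and 4 over the 9 arrays, and 0 fell. The rises were 53.8% and 30.8% of the markers, beside 13.4% and 6.12% of all genes called higher. The mean of the 13 markers was 11.34 to 12.30 in db/+ and 12.41 to 12.70 in db/db. Leptin (Lep), the adipocyte hormone, rose by 1.75 (adjusted p = 0.00036), Cidec, a lipid droplet protein of adipocytes, rose by 0.71 (adjusted p = 0.0131) over all arrays and differed by 0.34 (adjusted p = 0.0628) over the 9, and Adipoq differed by 0.25 (adjusted p = 0.0581). Their part in the rises of Mogat2, Dgat2 and Lpin1 was not tested; Mogat1 moved the other way.

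**Figure D2:**
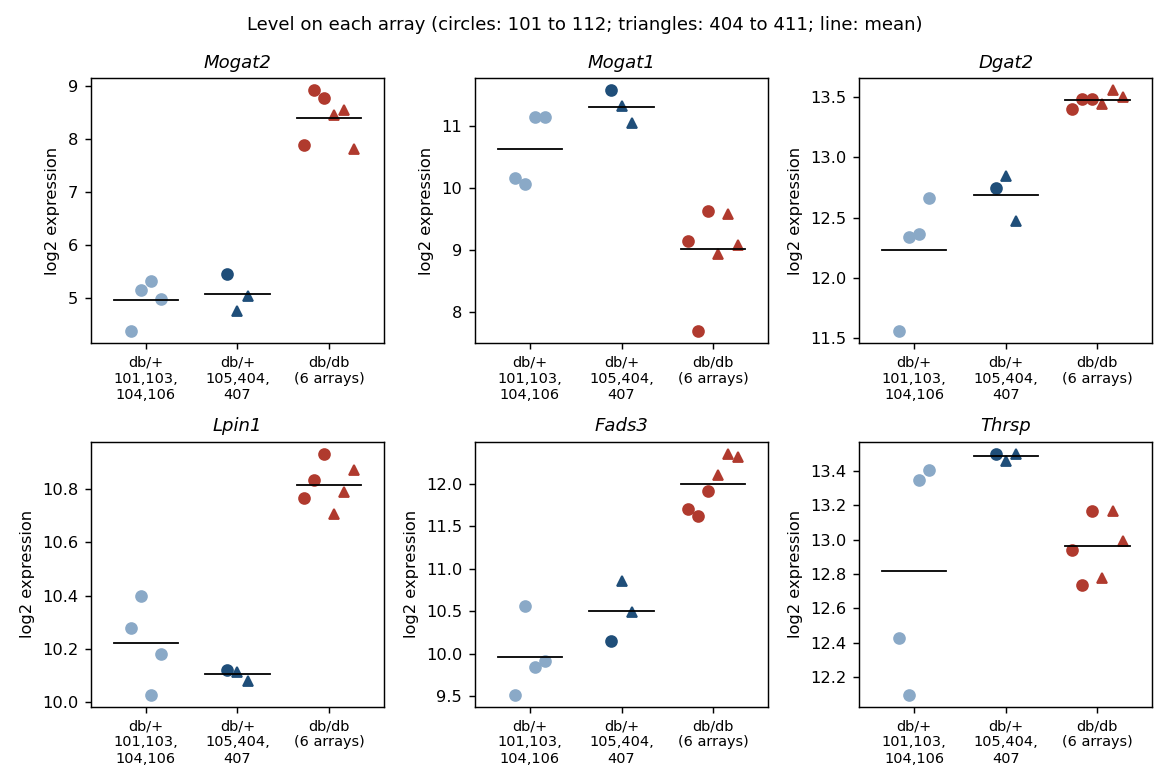
Log2 expression on each array for the 5 genes called in both comparisons and for Thrsp, with db/+ 101, 103, 104 and 106 apart from db/+ 105, 404 and 407; circles are samples 101 to 112, triangles samples 404 to 411, and lines are means. Mogat2, Dgat2, Lpin1 and Fads3 lie higher, and Mogat1 lower, in all of db/db than in any db/+ sample, whereas for Thrsp db/+ 101 and 103 lie below all db/db arrays and the other db/+ arrays above them.

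Among the desaturases, 1 of 5 was called, Fads3, in both comparisons. Fads3, a member of the fatty acid desaturase family that acts on sphingoid bases, read 9.52, 10.57, 9.85, 10.16, 9.92, 10.85 and 10.49 in db/+ and 11.71, 11.62, 11.92, 12.11, 12.35 and 12.31 in db/db. The groups did not overlap. Fads3 rose by 1.81 ± 0.21 on the log2 scale (SE; adjusted p = 9.54e-05), or 3.51-fold, and by 1.50 ± 0.21 (adjusted p = 0.0025) over the 9 arrays. Fads1 and Fads2, which desaturate polyunsaturated fatty acids and lie beside Fads3 on chromosome 19, were not called. Fads1 differed by -0.40 ± 0.14 (SE; adjusted p = 0.0548) and by -0.23 over the 9 arrays. It passed without db/+ 407, at -0.49 (adjusted p = 0.0101), and without db/db 111, at -0.46 (adjusted p = 0.0465). Fads2 differed by -0.22 and by 0.14.

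The stearoyl-CoA desaturases, which make monounsaturated fatty acids, were not called. Scd1 ran from 12.24 to 12.85 on db/+ arrays and from 12.68 to 12.93 on db/db arrays, a difference of 0.24 ± 0.10 (SE; adjusted p = 0.0999), and passed with each array centred on its median, at 0.29 (adjusted p = 0.0483). With array weights Scd1 passed at 0.28 (adjusted p = 0.0205). Scd2, the form with high expression in brain and nerve, ran from 11.47 to 13.04 on db/+ arrays and from 11.77 to 12.45 on db/db arrays. Its difference was -0.47 ± 0.23 (SE; adjusted p = 0.145) over all arrays and -0.06 over the 9. Its lowest array was db/+ 404, without which Scd2 passed at -0.65 (adjusted p = 0.00705). With array weights Scd2 passed at -0.71 (adjusted p = 0.00515). Within arrays 101 to 112 it was lower in db/db by 0.57 (log2 difference -0.57, adjusted p = 0.016), and within arrays 404 to 411 the difference was 0.05.

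The elongases held the other falls. Over all arrays 4 of 6 fell, with a median log2 difference of -1.24 over the step, and over the 9 arrays 0 of 6 passed, with a median of -0.47. The smallest unadjusted p of the 6 in limma over the 9 arrays was 0.0227, for Elovl4. Elovl4, which makes very long chain fatty acids, read 10.16, 9.91, 9.46 and 9.58 on db/+ 101, 103, 104 and 106, 7.35, 7.18 and 6.26 on db/+ 105, 404 and 407, and 5.86, 6.98, 6.02, 5.81, 5.81 and 5.20 in db/db. The first 4 arrays lay above all others, and db/+ 407 lay within the db/db range. Elovl4 fell by 2.61 ± 0.63 (SE; adjusted p = 0.00972) over all arrays, and its difference was -0.98 ± 0.36 (adjusted p = 0.108) over the 9. In the 9 arrays it passed once the number series was a block, at -1.09 (adjusted p = 0.0387), and without db/db 111, at -1.19 (adjusted p = 0.029).

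Elovl2, which lengthens polyunsaturated fatty acids, read 7.83, 6.68, 7.36 and 6.93 on the same 4 db/+ arrays, 5.42, 4.88 and 5.54 on the 3 others, and 4.74, 4.35, 4.50, 4.63, 5.63 and 4.80 in db/db. Array db/db 410 lay above the 3 db/+ arrays and the other 5 db/db arrays below them. Elovl2 fell by 1.60 ± 0.45 (SE; adjusted p = 0.0206), and its difference over the 9 arrays was -0.50 (adjusted p = 0.259), or -0.67 (adjusted p = 0.047) without db/db 410. Elovl7, which lengthens saturated and monounsaturated chains, read 9.87, 9.70, 9.84 and 9.84 on the 4 db/+ arrays, 8.44, 7.79 and 7.13 on the 3 others, and 7.16, 8.20, 7.62, 6.98, 7.10 and 6.51 in db/db. It fell by 1.69 ± 0.48 (SE; adjusted p = 0.0224), and its difference over the 9 arrays was -0.53 (adjusted p = 0.398). The call of Elovl7 over all arrays was lost without db/db 411 (-1.54, adjusted p = 0.0519).

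Elovl6, which lengthens palmitate to stearate, read 10.91, 10.86, 11.50 and 11.51 on the 4 db/+ arrays, 11.12, 10.41 and 9.80 on the 3 others, and 9.95, 10.14, 10.08, 10.10, 10.06 and 9.68 in db/db. Only db/+ 407 lay within the db/db range. Elovl6 fell by 0.87 ± 0.24 (SE; adjusted p = 0.0199), and its difference over the 9 arrays was -0.45 (adjusted p = 0.27). Elovl1 and Elovl5, the elongases of saturated very long chains and of polyunsaturated chains, differed by -0.02 and -0.15 over all arrays and were not called.

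The elongases were also read within each number series. Within arrays 101 to 112 the log2 differences were -2.31 for Elovl2, -3.001 for Elovl4, -1.13 for Elovl6 and -1.88 for Elovl7, and all passed (adjusted p = 0.0098 to 0.0188). Within arrays 404 to 411 they were -0.19, -1.11, -0.16 and -0.60, and none of the 4 passed (adjusted p = 0.11 to 0.774). The difference between the series had an unadjusted p of 0.0136, 0.058, 0.0101 and 0.0426 in the same order in limma's interaction term, and passed adjustment for 0 of 15437 genes, while 15.3% of all genes had an unadjusted p under 0.05. The lower series holds db/+ 105 and all 4 db/+ arrays with high neuron markers.

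Most neuron and myelin markers also fell over all arrays. Of 13 neuron markers, 11 fell over all arrays and 5 over the 9 arrays. Arrays db/+ 101, 103, 104 and 106 were left out there for their high neuron markers, so the smaller count is no independent result. Of 4 satellite glia markers, 1 fell over all arrays and 0 passed over the 9. The mean of 12 myelinating Schwann cell markers was 10.42 to 11.51 in db/+ and 9.41 to 10.87 in db/db, and 8 of them fell over all arrays and 0 over the 9. The log2 difference between the 3′ and 5′ actin control probe sets was 0.96 to 1.40 on db/+ 101, 103, 104 and 106, 0.40 to 1.14 on db/+ 105, 404 and 407, and 0.49 to 0.92 in db/db. Arrays db/+ 105 and 404, at 0.998 and 1.144, lay within the actin range of db/+ 101, 103, 104 and 106, and db/+ 407 was at 0.399. All db/+ arrays but 407 lay above every db/db array on this actin measure. The same difference for Gapdh was 0.72 to 0.99, 0.55 to 1.34 and 0.51 to 0.87 in the same order, and the genotypes overlapped. The part of these markers and control differences in the elongase differences, or in the other genotype differences, was not tested. Without db/+ 101, 103, 104 and 106, as given above, 0 of the 6 elongases passed, and 5 of the 6 differences were negative. That fit holds fewer arrays, and the share of all genes called lower was also smaller there, at 6.78% beside 11.7%.

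**Figure D3:**
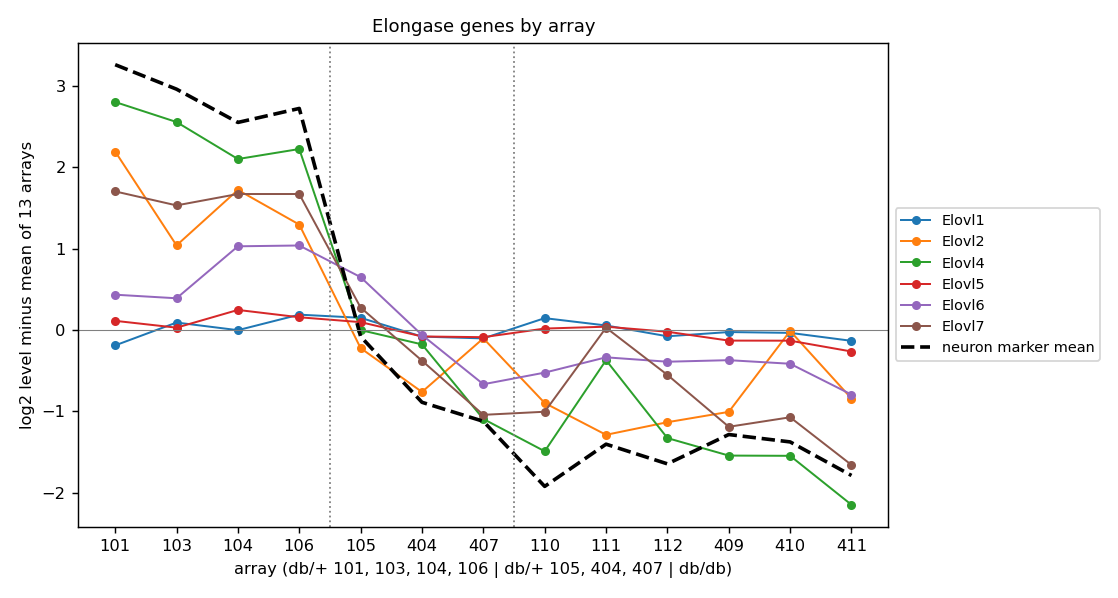
Log2 level of the 6 elongase genes on each array, less the gene's mean over 13 arrays, beside the mean of 13 neuron markers (dashed); lines only join the values of a gene, and dotted lines part db/+ 101, 103, 104 and 106 from db/+ 105, 404 and 407 and from db/db. Elovl2, Elovl4 and Elovl7 are high on the 4 db/+ arrays where the neuron marker mean is 11.11 to 11.82, and Elovl1 and Elovl5 stay near 0 throughout.

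Precursor supply and fatty acid synthesis held no called gene among 5 in either comparison. In limma the unadjusted p was 0.0305 for Acly and 0.039 for Me1 over all arrays, and 0.00767 for Me1 over the 9. The share of all genes at an unadjusted threshold was not taken, so these values have no background beside them. Fasn, fatty acid synthase, read 11.71, 11.08, 13.01, 13.001, 13.16, 12.97 and 12.63 in db/+ and 12.44, 12.12, 12.47, 12.74, 12.79 and 12.61 in db/db. Arrays db/+ 101 and 103 lay below every other array, and 4 of the other 5 db/+ arrays lay above all of db/db. The log2 difference was 0.02 ± 0.32 (SE; 95% confidence interval -0.66 to 0.70) over all arrays and -0.34 ± 0.16 (adjusted p = 0.203) over the 9. Me1, the cytosolic malic enzyme that makes NADPH, lay between 12.77 and 12.95 in db/db, above db/+ 105, 404 and 407 (12.66, 12.55 and 12.18). Its difference was 0.38 ± 0.17 (SE; adjusted p = 0.11) over all arrays and 0.40 ± 0.12 (adjusted p = 0.0555) over the 9, where it passed once the number series was a block (0.39, adjusted p = 0.0488) and without db/+ 105 (0.50, adjusted p = 0.0417).

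Slc25a1, the mitochondrial citrate carrier, differed by 0.27 and 0.05 in the 2 comparisons. Acly, which splits citrate into acetyl-CoA, differed by -0.30 ± 0.12 (SE; adjusted p = 0.0922) and -0.21. Its db/db arrays were tight, from 12.55 to 12.63, and db/+ arrays ran from 12.59 to 13.29. Acss2, which makes acetyl-CoA from acetate, differed by -0.19 and -0.15. Both db/+ 101 and 103 were the lowest of the 13 arrays for 8 members, namely Slc25a1, Acss2, Me1, Fasn, Thrsp, Scd1, Agpat3 and Dgat2, or 22.2% of the members beside 5.58% of all genes. On these arrays the adipocyte marker mean was 11.34 and 12.11, and the mean of 8 skeletal muscle markers was 11.82 and 9.37, in ranges of 11.34 to 12.70 and 6.61 to 11.82 over all arrays. Among the db/+ arrays the adipocyte marker mean ran from 11.34 to 12.30, with 101 the lowest and 103 above all others but 404. The part of these markers in the low values was not tested.

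**Figure D4:**
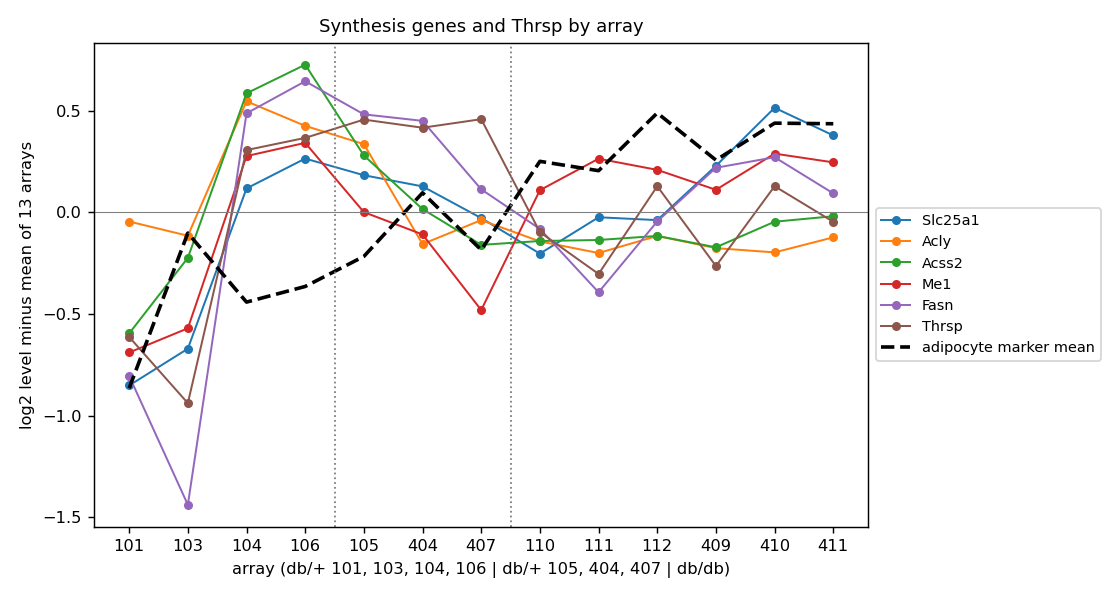
Log2 level of the 5 precursor supply and synthesis genes and of Thrsp on each array, less the gene's mean over 13 arrays, beside the mean of 13 adipocyte markers (dashed); lines only join the values of a gene. Arrays db/+ 101 and 103 are the lowest for Slc25a1, Acss2, Me1, Fasn and Thrsp, and the db/db arrays lie closer together than the db/+ arrays for each gene shown.

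Among the regulators, 0 of 3 passed over all arrays and 1 over the 9. Thrsp, a lipogenic protein induced by thyroid hormone and carbohydrate, read 12.43, 12.10, 13.35, 13.50, 13.41, 13.46 and 13.50 in db/+ and 12.94, 12.74, 13.17, 12.78, 13.17 and 12.99 in db/db. All db/+ arrays but 101 and 103 lay above all db/db arrays. Over all arrays the difference was -0.14 ± 0.23 (SE; adjusted p = 0.696). Over the 9 arrays Thrsp fell by 0.52 ± 0.12 (adjusted p = 0.0239), or 1.43-fold. That call was lost without db/+ 105 (-0.51, adjusted p = 0.0631), without db/+ 404 (-0.53, adjusted p = 0.0678) and without db/+ 407 (-0.51, adjusted p = 0.0734). Srebf1, the sterol regulatory factor that drives lipogenic genes, ran from 10.83 to 11.66 on db/+ arrays and from 11.26 to 11.44 on db/db arrays, with a difference of -0.03 ± 0.12 (SE; 95% confidence interval -0.28 to 0.22). Mlxipl, the carbohydrate-responsive factor ChREBP, differed by 0.42 ± 0.28 (SE; adjusted p = 0.302), with db/+ 101 lowest at 8.68 and db/db 410 highest at 10.90.

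Of the acyl-CoA synthetases, 0 of 3 passed in either comparison by limma. The unadjusted p was 0.0141 for Acsl3 and 0.0321 for Acsl4 over all arrays, and 0.0176 for Acsl4 over the 9. The share of all genes at an unadjusted threshold was not taken, so these values have no background beside them. Acsl3, a synthetase of the endoplasmic reticulum and lipid droplets, read 10.10, 10.34, 10.58 and 10.50 on db/+ 101, 103, 104 and 106, 9.62, 9.40 and 9.04 on db/+ 105, 404 and 407, and 8.90 to 9.64 in db/db. Its difference was -0.71 ± 0.25 (SE; adjusted p = 0.0541) over all arrays and -0.12 over the 9. It passed once the number series was a block (-0.55, adjusted p = 0.0321), without db/+ 404 (-0.80, adjusted p = 0.0355) and without db/+ 407 (-0.86, adjusted p = 0.0121). Acsl4, which prefers arachidonate, read 7.58 to 8.51 in db/+ and 8.24 to 9.15 in db/db. Its difference was 0.43 ± 0.18 (SE; adjusted p = 0.0957) and 0.67 ± 0.23 (adjusted p = 0.0924). When the number series was a block Acsl4 passed in both, at 0.54 (adjusted p = 0.00604) and 0.59 (adjusted p = 0.046), and within arrays 101 to 112 at 0.47 (adjusted p = 0.0326). Acsl5 differed by 0.13 and -0.05.

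The db/+ arrays were also set against each other gene by gene. For 11 of the 36 members, db/+ 105, 404 and 407 did not overlap with db/+ 101, 103, 104 and 106, which is 30.6% of the members beside 33.1% of all genes. They lay below for 6 (Elovl2, Elovl4, Elovl7, Fads2, Acsl3 and Agpat5) and above for 5 (Thrsp, Scd1, Acsl5, Gpat4 and Lpin2), beside 12.1% and 21.0% of all genes. These arrays all carry the same genotype label. The SD was larger in db/+ than in db/db for 30 of the 36 members (83.3%) and for 68.6% of all genes.

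Neighbouring members on a chromosome did not share a direction throughout. Mogat2 and Dgat2 lie next to each other on chromosome 7, with 0 protein-coding genes between them, and both rose. Uvrag, which flanks Dgat2, rose by 0.63 (adjusted p = 0.0103) over all arrays and differed by 0.43 (adjusted p = 0.192) over the 9. Map6, which flanks Mogat2, differed by -0.41 (adjusted p = 0.457) and by 0.58 (adjusted p = 0.0883). Acsl3 and Mogat1 are neighbours on chromosome 1, and both differences were negative in each comparison, with a call for Mogat1 only. On chromosome 19, over all arrays, Fads3 differed by 1.81 and its neighbour Fads2 by -0.22. Scd1 and Scd2, with 1 protein-coding gene between them, differed by 0.24 and -0.47. Acsl5 and Gpam, with 2 between them, differed by 0.13 and 0.33.

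Other genes of lipid synthesis were read from 7 lists with 78 measured genes of 90. Over all arrays 24 rose and 8 fell, or 30.8% and 10.3%, beside the 13.4% and 11.7% of all genes. Over the 9 arrays 12 rose and 3 fell, or 15.4% and 3.85%, beside the 6.12% and 6.78% of all genes. The list of glycerol supply and other triglyceride genes had 8 of 12 higher (66.7%) and 0 lower over all arrays, and 5 of 12 higher (41.7%) over the 9. In it, Aqp7, the glycerol channel of adipocytes, rose by 1.62 (adjusted p = 0.000234), Pnpla3, a lipid droplet hydrolase and acyltransferase, by 1.36 (adjusted p = 0.00132) and Fitm2, which aids lipid droplet formation, by 0.83 (adjusted p = 0.00371). All 3 also rose over the 9 arrays, by 1.52, 0.98 and 0.80, although the call of Fitm2 there was lost in 6 of the 9 cases that leave out 1 array (adjusted p at most 0.114). Aqp7 is also among the adipocyte markers.

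Among 12 other regulators, Pparg, the nuclear receptor of adipocyte differentiation, rose by 0.73 (adjusted p = 0.00605) and Insig2, which retains SREBP in the endoplasmic reticulum, by 0.27 (adjusted p = 0.0349), and Mid1ip1, a partner of acetyl-CoA carboxylase and relative of Thrsp, fell by 0.58 (adjusted p = 0.0199). Of these, Pparg passed over the 9 arrays, at 0.56. Of 10 other elongation and desaturation genes 3 rose and 1 fell: the acyl-CoA dehydratases Hacd2 and Hacd1, which act in the elongation cycle, rose by 1.11 and 0.52, and Elovl3, listed apart from the 6 elongases above, rose by 1.79 (adjusted p = 0.0118) from a low level of 3.47 ± 0.44 (SD, n = 7). Elovl3 differed by 0.56 (adjusted p = 0.122) within arrays 101 to 112 and by 3.37 (adjusted p = 0.0151) within arrays 404 to 411, with an adjusted p of 0.181 for the difference between the series in limma, and was not called over the 9 arrays (2.16, adjusted p = 0.0529). Over the 9 arrays Hacd2 passed, at 1.09, and Hacd1 did not, at 0.37 (adjusted p = 0.0501; for Hacd2, adjusted p = 0.0017). Of 12 genes of NADPH and carbon supply 3 rose and 1 fell, with Pgd, which makes NADPH in the pentose phosphate pathway, up by 0.79 (adjusted p = 0.000272), Taldo1 of the same pathway by 0.35 and citrate synthase Cs by 0.26. Over the 9 arrays Pgd passed, at 0.62, and Taldo1 (0.17, adjusted p = 0.331) and Cs (0.19, adjusted p = 0.19) did not. Leaving out each of the 13 arrays in turn, the calls of Insig2 and Taldo1 were each lost in 8 cases, with an adjusted p of at most 0.0744 and 0.0772. The 9-array call of Pparg was lost in 8 of its 9 cases (adjusted p at most 0.145).

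Of 6 genes of mitochondrial fatty acid synthesis 3 rose over all arrays (Mecr by 0.73, Oxsm by 0.34 and Cbr4 by 0.31), and these 3 were not called over the 9. Another gene of this list, 1 of the 6, was called lower over the 9 arrays. The call of Oxsm was lost in 10 of the 13 cases that leave out 1 array (adjusted p at most 0.0944), and that of Acsbg1, given next, in 10 (at most 0.101). Of 11 other acyl-CoA synthetases and thioesterases, 1 rose and 2 fell in each comparison. Of the 2 that fell, Acsm3 was the same in both and the other was not. The fatty acid transporter Slc27a1 rose by 0.72 over all arrays and by 0.88 over the 9. Acsm3, a synthetase for medium chains, fell by 1.34 and by 1.61. Acsbg1 fell by 1.33 (adjusted p = 0.0491) over all arrays, and over the 9 it differed by -0.15 and was not called. Of 15 genes of the phospholipid branch 4 rose and 3 fell over all arrays, and 3 rose and 0 fell over the 9. The median log2 difference of this branch was -0.10 over all arrays and 0.30 over the 9. Lpcat3, which loads polyunsaturated chains into phospholipids, rose by 1.24 and by 0.88, Pemt, which methylates phosphatidylethanolamine, rose by 0.94 over all arrays and differed by 0.78 (adjusted p = 0.0777) over the 9, and Pcyt1b, a regulatory enzyme of phosphatidylcholine synthesis, fell by 1.63 (adjusted p = 0.012) over all arrays and differed by -0.59 over the 9.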

How the data were processed

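Biotin-labelled, amplified total RNA of sciatic nerve was measured on 1-colour arrays, per the labels' protocols. Per the submitters' processing notes, the authors used RMA for the deposited log2 expression values; neither its version nor the probe set definitions could be found in the labels. RMA normalizes arrays to each other and compresses folds of dim genes, and there are no detection calls. The number of arrays limits the precision.

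Of 15479 probe sets, 42 controls were left out. A platform table gave 14801 of the 15437 others 1 symbol, 636 none and 0 several, and 14776 were found in a RefSeq table. Each gene had 1 probe set.

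Genotype was tested by a two-sided moderated test (R 4.3.3; limma 3.58.1, functions lmFit and eBayes), adjusted by Benjamini-Hochberg across the 15437 probe sets, at a threshold of 0.05. Samples fall into 2 number series (101 to 112 and 404 to 411), whose meaning the labels do not give; their difference was tested as an interaction. The script was tested on simulated data. Tables, motif matches and figures were made in Python 3.11.15 (numpy 2.4.6, pandas 2.3.3, matplotlib 3.10.9).

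Members, related genes, markers, the 9-array comparison and the tests were chosen with earlier results of these data known. The text names every measured member, Lepr, the 3 genes with the smallest p of each related list, and defining markers; Fabp4, Mbp, Pmp22 and the chromosomal neighbours Uvrag and Map6 were added to these. Alternatives were variance moderation with a trend, renewed normalization or centring, a filter on low values (25th percentile), array weights, a block for number series, each series alone, and leaving out each array. No gene set test was run.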

Additional observations from a re-analysis of the deposited data

Results flagged for a closer look

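Among the 72 combinations of a member and a genotype group, 3 held an array far from the rest of its group by Dixon's criterion; chance alone flags about 1 in 20. Elovl2 on db/db 410 was at 5.626, above the next highest db/db array at 4.80. Mogat1 on db/db 111 was at 7.691, below the next lowest at 8.93. Dgat2 on db/+ 101 was at 11.554, below the next lowest at 12.34. Without the array in question, Mogat1 kept its call in both comparisons and Dgat2 over all arrays (db/+ 101 is not among the 9); Elovl2 kept its call over all arrays.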

How the results depend on the processing

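Over 22 alternatives for all 13 arrays and 16 for the 9 arrays, Mogat2, Fads3, Dgat2, Lpin1 and Mogat1 passed in every alternative, with Mogat2 between 3.28 and 3.504 over all arrays and between 3.15 and 3.498 over the 9. Elovl2, Elovl4, Elovl6 and Elovl7 lost their calls in arrays 404 to 411 alone, where only 2 db/+ and 3 db/db arrays remain, and the filter on low values left Elovl2 untested. Where a result moved below, the cause was not tested, other than that fewer arrays or genes entered some fits. With array weights, which gave 3581 genes higher and 2944 lower over all arrays, 10 members were higher and 10 lower. In arrays 404 to 411 alone 761 genes were higher and 643 lower, and 1 member (Mogat1) was lower. With the number series as a block, the 9 arrays gave 1605 genes lower and 7 members higher. Leaving out each array in turn, the 9 arrays gave 570 to 895 genes higher, 533 to 904 lower (fewest without db/+ 407 and db/+ 404) and 1 to 3 members lower, with 1 without each of db/+ 105, 404 and 407. No paired analysis was possible because the genotypes share no sample numbers.

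Signs turned for members that were not called. Over all arrays, Fasn was -0.012 with quantile normalization, -0.063 with the series block, -0.047 in samples 101 to 112 and -0.087 in samples 404 to 411. Srebf1 was 0.018 with median centring and 0.036 in arrays 101 to 112, and Gpat3 was -0.0026 with array weights. Elovl1 was 0.030 with median centring, 0.0069 with the block and 0.028 in arrays 404 to 411. In arrays 404 to 411 Scd2 was 0.052, Fads2 0.089, Acsl5 -0.073, Lpin2 -0.094 and Lpin3 -0.45. Leaving out each array, over all arrays Fasn ranged from -0.22 to 0.13, Srebf1 from -0.12 to 0.018, Elovl1 from -0.052 to 0.011 and Agpat1 from -0.014 to 0.093. Over the 9 arrays, Acsl3 ranged from -0.28 to 0.011, Acsl5 from -0.14 to 0.024, Agpat1 from -0.016 to 0.23, Agpat3 from -0.11 to 0.083, Elovl5 from -0.090 to 0.0023, Gpat4 from -0.044 to 0.11, Lpin2 from -0.15 to 0.0023, Lpin3 from -0.62 to 0.23, Scd2 from -0.41 to 0.24 and Slc25a1 from -0.026 to 0.12.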
